A study of Rattus norvegicus with 49 samples.

Results

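The MHC class II antigen presentation genes Cd74, RT1-Da, RT1-Ba, RT1-Bb, RT1-DMa and RT1-DMb, together with Ifi30, were followed in rat hippocampal CA1 at 5 ages. Members were taken by gene symbol in the platform annotation, which gave 9 probe sets of 7 genes among the 15923 probe sets of the array, where 10412 genes had a probe set of their own. The rats were of the inbred Fisher 344 strain, and total RNA of left hippocampal CA1 was hybridised to Affymetrix RAE 230A arrays, 1 for each rat. The animals were 3, 6, 9 or 12 months old (9 animals each) or 23 months old (13 animals), and those of all 5 ages had been trained in the Morris water maze in the days before the tissue was taken. The design text calls the oldest animals 25 months in one place and 23 months in another; 23 months, as in the sample labels, is used here. By the same text 2 old rats in poor health were taken out, so the oldest group holds only animals that stayed in the study. The tissue was a block of CA1 with all its cell types, so more cells of a type and more RNA per cell cannot be told apart.

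MHC class II molecules are pairs of an α and a β chain that display peptides from taken-up protein to helper T cells. Cd74, the invariant chain, escorts the new pair and blocks its groove until proteases cut it away, RT1-DMa and RT1-DMb form the exchange factor that loads peptide in its place, and Ifi30 is the lysosomal thiol reductase that opens disulfide bonds of the antigen. In the brain, class II is known chiefly from microglia, border macrophages and dendritic cells, at low levels in young healthy tissue. In the rat the RT1-D chains correspond to human HLA-DR and the RT1-B chains to HLA-DQ.

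The chain and DM genes lie in the MHC on chromosome 20, in the order RT1-Da, RT1-Db2, RT1-Db1, RT1-Ba, RT1-Bb, RT1-DOb, Tap2, Psmb8, Tap1, Psmb9, RT1-DMb, RT1-DMa in the RefSeq annotation of GRCr8, while Cd74 is on chromosome 18 and Ifi30 on chromosome 16. Class II promoters are known for a shared upstream module, an X box bound by the RFX complex and a Y box, an inverted CCAAT sequence bound by NF-Y, on which the coactivator Ciita assembles. The 120 bases before the annotated start are shown for the MHC members found in the RefSeq promoter table, because they let the genes with large and with small differences by age be set side by side. Capitals mark matches to CCAAT (read as ATTGG on the other strand) and to the X box letters (G, any 2 bases, AC, any 2 bases, ATG), both strands searched; the letters were chosen after these promoters had been seen. The positions in GRCr8 are chr20:4515295-4515414 (plus strand) for RT1-Da, chr20:4576937-4577056 (plus strand) for RT1-Ba, chr20:4604119-4604238 (minus strand) for RT1-Bb and chr20:4712336-4712455 (minus strand) for RT1-DMa.
RT1-Da: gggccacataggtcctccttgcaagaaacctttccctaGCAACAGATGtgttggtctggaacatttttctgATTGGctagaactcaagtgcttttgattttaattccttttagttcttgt
RT1-Ba: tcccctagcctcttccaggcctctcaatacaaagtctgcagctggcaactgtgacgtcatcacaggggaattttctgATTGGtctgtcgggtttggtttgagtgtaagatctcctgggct
RT1-Bb: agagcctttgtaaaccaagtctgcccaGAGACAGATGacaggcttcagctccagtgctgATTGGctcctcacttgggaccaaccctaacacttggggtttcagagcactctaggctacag
RT1-DMa: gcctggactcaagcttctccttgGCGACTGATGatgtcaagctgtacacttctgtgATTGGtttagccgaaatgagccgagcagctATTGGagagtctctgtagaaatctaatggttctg

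All 4 promoters held the inverted CCAAT box within 120 bases of the start, at 49 to 45 bases before it in RT1-Da, 43 to 39 in RT1-Ba, 61 to 57 in RT1-Bb, and 64 to 60 and again 34 to 30 in RT1-DMa. In each gene the upstream one, or the only one, was part of the longer CCAATCA on the other strand. The short form in either direction stood in 19.9% of the 33469 RefSeq promoters over the same 120 bases, and the long form, which holds it, in 4.04%. The X box letters were found 82 to 73 bases before the start of RT1-Da, 93 to 84 before RT1-Bb and 97 to 88 before RT1-DMa, and stood in 3.76% of the promoters. RT1-Ba held no match to these letters. Since they were chosen after the promoters had been seen, this does not mean that RT1-Ba lacks an X box. The long form and the X box letters together were present in 56 promoters, 0.167% of all, with RT1-Da, RT1-Bb and RT1-DMa among them. At 23 against 3 months the signal was 3.91-fold higher for RT1-Da, 3.53-fold for RT1-Bb and 1.11-fold for RT1-DMa. For RT1-Ba, without a match to the X box letters, it was 5.12-fold higher. Whether these letters bear on the differences by age was not tested. In the full window of 300 bases (250 before to 50 after the start) Cd74 held 1 match to the short form, 189 to 185 bases before its start, against 37.5% of all promoters. The STAT letters TTCNNNGAA, present in 8.87% of such windows, were in none of the member windows found in the table, which had no entry for RT1-DMb. These matches describe letters and not occupied sites.

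Array medians of the signal were 208 to 224.9, and a signal of 100 or more was seen for 10186 to 10924 probe sets per array. Of the probe sets with 1 gene symbol, 9541 reached 100 on at least 5 arrays and were tested. Of the 9 member probe sets 7 did so, 1 per gene. Those of Cd74, RT1-DMa, RT1-DMb and Ifi30 reached 100 on all 49 arrays, that of RT1-Da on 32 and the brighter of RT1-Ba on 23, of which 12 were of 23 months. The brighter probe set of RT1-Bb reached 100 on 11 arrays, all of 23 months, so it was tested only through the age at which it was high. A second probe set each of RT1-Ba and RT1-Bb never reached 100, and both are given apart. The 3′ to 5′ log2 signal ratio, a sign of RNA quality, was highest at 23 months, with age means of 0.257 to 0.309 for GAPDH and 0.815 to 0.925 for actin; its part in the differences was not tested.

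The class II chains and the invariant chain were higher at 23 months than at the 4 younger ages, while the largest difference of a DM gene from 3 months was 1.14-fold. Cd74 had a mean signal of 183 ± 15.2 at 3 months, 189 ± 47.0 at 6, 167 ± 27.6 at 9 and 209.6 ± 37.2 at 12 months (SD, n = 9 each), and of 676 ± 549 at 23 months (SD, n = 13). The lowest, median and highest animal were at 163.5, 180.4 and 210.3 at 3 months, 143.7, 164.6 and 291.9 at 6 months, 127.8, 163.9 and 222.3 at 9 months, 123.6, 221.1 and 253.2 at 12 months, and 288.4, 536.2 and 2439.3 at 23 months. Of the 13 old animals 12 lay above all 36 younger ones for Cd74. The exception was replicate 4 at 288.4, just under the 291.9 of replicate 3 of 6 months.

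RT1-Da, the α chain of the D molecule, separated old from younger animals without overlap. Its lowest, median and highest signals were 78.7, 99.6 and 115.9 at 3 months, 79.9, 106 and 150.9 at 6 months, 58, 95.3 and 121.8 at 9 months, 94, 140.2 and 166.2 at 12 months, and 204.2, 334.4 and 2382.3 at 23 months. The means were 97.6 ± 11.7, 106 ± 23.8, 94.98 ± 18.5, 136 ± 27.1 (SD, n = 9 each) and 494 ± 574 (SD, n = 13) in the order of age. All 13 old animals stood above the highest of the 36 younger ones. The share of all tested probe sets that separate the ages in this way is not given here. Such counts, for each gene, therefore describe the members only.

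The chains of the B molecule were also higher at 23 months. RT1-Ba, its α chain, ran from 11.9 through a median of 51.5 to 104.8 at 3 months, 24.9, 100.2 and 152.9 at 6 months, 17.1, 73.9 and 119.7 at 9 months, 14.2, 96.4 and 128.6 at 12 months, and 90.8, 182.8 and 857.4 at 23 months. Its means were 48.6 ± 32.8, 99.6 ± 42.7, 69.2 ± 29.3, 86.0 ± 39.1 (SD, n = 9 each) and 242 ± 196 (SD, n = 13). Here the ages overlapped most among the chains: 10 of 13 old animals lay above all younger ones, and at 3 months 3 of 9 animals were under the floor of 16 to which signals were raised before taking log2. RT1-Bb, the β chain, ran from 29.4 through 41.4 to 72.6 at 3 months, 8.4, 44.4 and 92.1 at 6 months, 21.3, 42.1 and 68.9 at 9 months, 26.7, 56.3 and 88.3 at 12 months, and 90.4, 138.7 and 874.2 at 23 months. Its means were 43.0 ± 13.1, 48.4 ± 25.4, 42.9 ± 16.6, 55.8 ± 18.9 (SD, n = 9 each) and 187 ± 209 (SD, n = 13). For RT1-Bb 12 of 13 old animals lay above all younger ones, and the exception, replicate 10 at 90.4, was just under the 92.1 of replicate 3 of 6 months.

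The exchange factor genes overlapped between ages. RT1-DMa, the α chain of the exchange factor, had means of 614 ± 54.2, 656 ± 45.3, 619 ± 65.1, 644 ± 57.2 (SD, n = 9 each) and 679.7 ± 63.0 (SD, n = 13) in the order of age, and its old animals ran from 600.5 through 676.4 to 843.2. RT1-DMb, its β chain, had means of 414 ± 55.8, 396 ± 69.9, 399.8 ± 46.6, 420.1 ± 13.8 and 474 ± 74.8, and its old animals ran from 373.7 through 471.1 to 628. Old and young animals overlapped broadly in both genes, with 1 and 2 of 13 old animals above all younger ones. Ifi30 lay between these patterns: its means were 386 ± 58.7, 404.5 ± 30.4, 401 ± 40.8, 439.7 ± 55.3 and 487 ± 62.5, and its old animals ran from 398.2 through 476.5 to 605.6. Only 1 old animal exceeded every younger one for Ifi30, so its difference was a shift of overlapping groups.

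**Figure D1:**
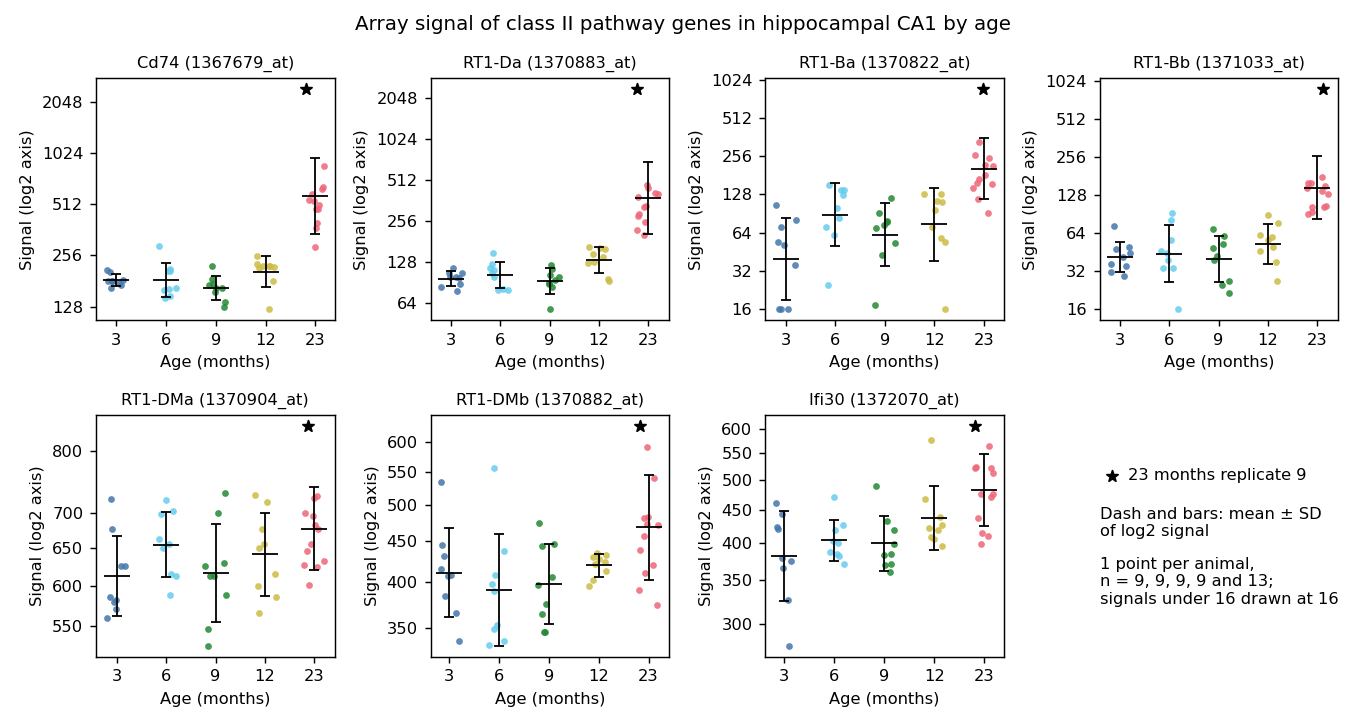
Signal of the 7 tested probe sets in every animal against age in months, on log2 axes whose range differs between panels. Points are animals (n = 9 at 3, 6, 9 and 12 months, n = 13 at 23 months), dashes and bars are the mean ± SD of log2 signal, and the star is replicate 9 of 23 months; the old animals stand above nearly all others in the 4 upper panels and overlap them in the 3 lower ones.

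The 2 dim probe sets showed no such pattern. The second RT1-Ba probe set ran from 3.7 to 60.2 over all arrays, with means of 24.1 at 3 months and 21.6 at 23 months, and the second RT1-Bb probe set from 4.1 to 58.6, with means of 13.7 and 18.6. The log2 differences of 23 minus 3 months were -0.13 and 0.32 (two-sided permutation test of 100000 resamples, p = 0.692 and 0.188, not adjusted). The limma fit without a signal filter gave adjusted p = 0.920 and 0.576. Neither showed the difference of the brighter probe set of its gene, and both lay under a signal of 100 on all 49 arrays. For the second RT1-Ba probe set 9 of 13 animals of 23 months and 3 of 9 of 3 months were under the floor of 16. For the second RT1-Bb probe set these were 8 of 13 and 7 of 9. Values so near the floor cannot decide for or against the brighter probe sets.

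At 23 against 3 months 4 genes differed by 3-fold or more, those of the 3 chains and the invariant chain. RT1-Ba was 5.12-fold higher at 23 months, a log2 difference of 2.36 ± 0.36 (SE; limma adjusted p = 6.96e-06). RT1-Da was 3.91-fold higher (1.97 ± 0.21, adjusted p = 1.27e-09), RT1-Bb 3.53-fold higher (1.82 ± 0.28, adjusted p = 6.13e-06) and Cd74 3.14-fold higher (1.65 ± 0.18, adjusted p = 1.48e-09). Over the 9541 probe sets the median difference was -0.00134. Ifi30 rose 1.27-fold (0.34 ± 0.074, adjusted p = 0.00236). RT1-DMa (0.15, 95% interval 0.032 to 0.26, adjusted p = 0.168) and RT1-DMb (0.19, 95% interval 0.028 to 0.35, adjusted p = 0.223) did not pass; the upper ends of their intervals correspond to 1.20-fold and 1.27-fold. So 5 of the 9 member probe sets passed, all higher, where 205 of 9541 probe sets, 2.15%, passed as higher, 93, 0.975%, as lower and 298, 3.12%, in either direction. This count is a description, since RT1-Bb could be tested only because it was high in old animals.

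A higher floor lowered the fold of the dim chains. At a floor of 64 RT1-Ba differed by 1.53 and RT1-Bb by 1.17 (log2), below RT1-Da at 1.97 and Cd74 at 1.65, so the order of sizes among these genes is not fixed by the data; RT1-Bb then also lay below the microglial Fc receptor gene Fcgr2b at 1.30, whose signals were all above that floor. A high signal for transthyretin, the choroid plexus transcript, marked 5 arrays, 4 of 3 months and 1 of 23 months. Without these 5 arrays the probe sets called at 23 against 3 months numbered 189 in place of 298, while Cd74, RT1-Da, RT1-Ba, RT1-Bb and Ifi30 still passed, at 1.69, 2.04, 2.41, 1.81 and 0.38.

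The chains and loading genes were also set side by side as the log2 ratio of each gene to RT1-DMa and to RT1-DMb within each array. This comparison was chosen after these values had been seen, so it is a description and carries no test. Relative to RT1-DMa, the ratio was higher at 23 than at 3 months by 1.51 ± 0.19 (SE, n = 13 and 9) for Cd74, 1.82 ± 0.23 for RT1-Da, 2.21 ± 0.41 for RT1-Ba, 1.67 ± 0.25 for RT1-Bb and 0.20 ± 0.10 for Ifi30. Relative to RT1-DMb the values were 1.46, 1.78, 2.17, 1.63 and 0.15. For Cd74, RT1-Da and RT1-Bb all 13 old animals had a ratio above every 3-month animal with either partner. For RT1-Ba 12 did with RT1-DMa and 11 with RT1-DMb, and for Ifi30 2 did with RT1-DMa and 3 with RT1-DMb.

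**Figure D2:**
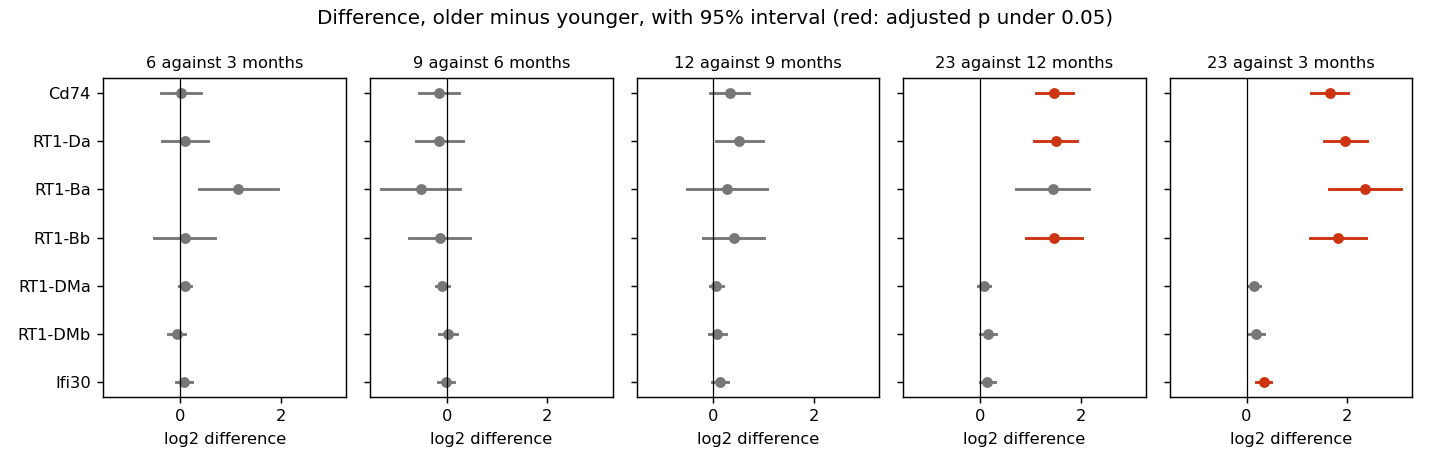
Log2 difference, older minus younger, of the 7 tested probe sets in 5 comparisons, with 95% intervals from the limma fit; red marks an adjusted p under 0.05 over 9541 probe sets. No gene is red in the steps up to 12 months, and the chains and Cd74 sit between 1.45 and 1.51 at 23 against 12 months.

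The moderated F-test over 5 ages passed for RT1-Da, Cd74, RT1-Bb, RT1-Ba and Ifi30 (adjusted p = 3.90e-11, 1.77e-11, 1.21e-06, 1.04e-04 and 0.0138) and not for RT1-DMb (0.270) or RT1-DMa (0.595), against 169 of 9541 probe sets, 1.77%. Of the 4 steps between neighbouring ages, that from 12 to 23 months was the one in which members passed. At 23 against 12 months Cd74 was 2.79-fold higher (1.48 ± 0.18, adjusted p = 5.77e-07), RT1-Da 2.84-fold (1.51 ± 0.21, adjusted p = 1.34e-05) and RT1-Bb 2.78-fold (1.47 ± 0.28, adjusted p = 0.00215), where 27 of 9541 probe sets passed, 0.283%, and 25 as higher, 0.262%. Cd74 and RT1-Da had the smallest and next smallest p of all probe sets in this comparison. RT1-Ba differed by a like amount, 1.45 ± 0.36 (2.73-fold), and did not pass (adjusted p = 0.0583); it passed with a floor of 32, with a floor of 64, with array weights, and when 1 of 5 arrays was left out (replicate 5 of 6 months, 2 of 9 months, 9 of 12 months, or 6 or 7 of 23 months). Ifi30 (0.14, 95% interval -0.0042 to 0.29, adjusted p = 0.605), RT1-DMb (0.16, -0.0024 to 0.32, adjusted p = 0.597) and RT1-DMa (0.078, -0.036 to 0.19, adjusted p = 0.775) did not pass.

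Few probe sets passed in the comparisons among the 4 younger ages. They were 19 at 12 against 3 months (0.199%), 5 at 9 against 3 months (0.0524%) and 1 at 6 against 3 months (0.0105%). At 9 against 6 and at 12 against 9 months 0 passed, with 219 and 380 at an unadjusted limma p under 0.05. Both counts are fewer than that threshold would pass by chance on average among 9541 probe sets. With the plain test in place of limma's, 0 and 0 passed after adjustment. No member passed in any tested comparison among these 4 ages. The largest member values there were those of RT1-Ba, at 1.16 ± 0.39 at 6 against 3 months (unadjusted limma p = 0.00472, adjusted 1.00) and 0.91 ± 0.39 at 12 against 3 months (unadjusted 0.0245, adjusted 0.546). The former rests on dim values: with a floor of 64 it was 0.50 ± 0.24. RT1-Da was higher at 12 than at 3 months by 0.46 (95% interval -0.0038 to 0.92, adjusted p = 0.648), Ifi30 by 0.20 (0.035 to 0.36, adjusted p = 0.518) and Cd74 by 0.17 (-0.22 to 0.56, adjusted p = 0.879). By mean log2 signal 23 months ranked highest for all 7 probe sets. Below it Cd74, RT1-Da and RT1-Bb shared the order 12, 6, 3 and 9 months, RT1-DMb ran 12, 3, 9 and 6, Ifi30 ran 12, 6, 9 and 3, and RT1-Ba and RT1-DMa ran 6, 12, 9 and 3. None of the pairs of ages tested among these 4 passed after adjustment; 12 against 6 months was not tested.

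One old animal stood apart. Replicate 9 of 23 months had the highest signal of its age in all 7 tested probe sets. It was 2.83-fold above the next animal for Cd74 (2439.3 against 863.6), 5.07-fold for RT1-Da (2382.3 against 469.9), 2.60-fold for RT1-Ba (857.4 against 330.4) and 4.93-fold for RT1-Bb (874.2 against 177.2). For RT1-DMa, RT1-DMb and Ifi30 the ratio was 1.16, 1.06 and 1.07. The gap was wide in the chains and Cd74 and narrow in the other genes. Without it the old group's means fell to 529 ± 149 for Cd74, 336 ± 89.2 for RT1-Da, 191 ± 67.3 for RT1-Ba and 129 ± 29.5 for RT1-Bb (SD, n = 12).

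The age differences were smaller without this animal and were called as before. The log2 differences at 23 against 3 months were then 1.48 ± 0.13 for Cd74, 1.75 ± 0.14 for RT1-Da, 2.18 ± 0.35 for RT1-Ba and 1.61 ± 0.23 for RT1-Bb (SE; limma adjusted p = 1.66e-12, 5.33e-14, 1.61e-05 and 2.88e-06), with smaller standard errors for each. Ifi30 stood at 0.31 (adjusted p = 0.00596). At 23 against 12 months Cd74, RT1-Da and RT1-Bb passed at 1.31, 1.29 and 1.26, and RT1-Ba did not, at 1.27 (adjusted p = 0.125).

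**Figure D3:**
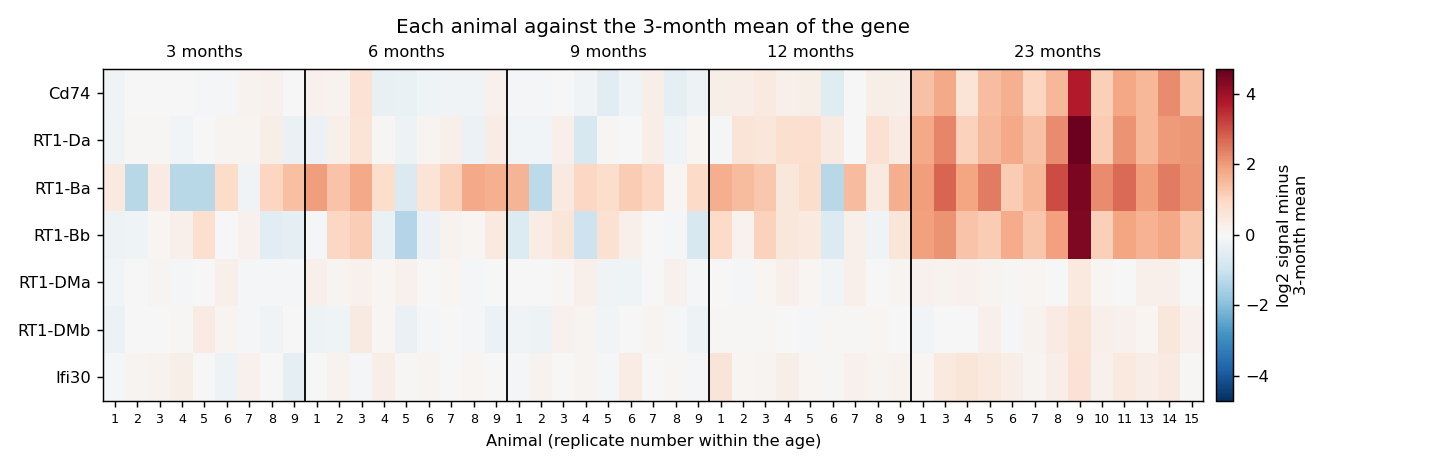
Log2 signal of each of 49 animals (columns, by age and replicate number) minus the 3-month mean of the gene (rows); red is higher and blue lower. The 13 animals of 23 months are red in the 4 upper rows, replicate 9 most of all, and the DM rows stay pale throughout.

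Animals of the same age that were high in one chain tended to be high in another, and this rested largely on replicate 9. Deviations from the age mean were compared for 21 pairs of the 7 genes over 49 animals with permutation within ages. By Pearson's r 11 pairs had an adjusted p under 0.05, by Spearman's rho 4, and without replicate 9, or without the 2 animals farthest from the median, 4. The closest pair was Cd74 and RT1-Da, with r = 0.82 (permutation p = 1e-05, adjusted 1.05e-04), rho = 0.57 (permutation p = 1.4e-04, adjusted 0.00294), r = 0.52 without the 2 farthest animals and r = 0.58 without replicate 9. Cd74 with RT1-Bb gave r = 0.71 and rho = 0.52, RT1-Da with RT1-Bb r = 0.69 and rho = 0.44, and Cd74 with RT1-Ba r = 0.52 and rho = 0.47. These were the 4 pairs that passed by rho.

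Within 23 months alone 10 of 21 pairs passed by r (n = 13, permutation). Without replicate 9 no pair passed after adjustment (n = 12, permutation), and the largest values were 0.77 for Cd74 with RT1-Da (permutation p = 0.00265, adjusted 0.0556; rho = 0.78) and 0.75 for RT1-Da with RT1-Bb (permutation p = 0.00795, adjusted 0.0835; rho = 0.74). In the 36 younger animals no pair passed, with r from -0.25 to 0.49. RT1-DMa was at r = 0.088 to Cd74 and -0.29 to RT1-Da among the 12 old animals without replicate 9, neither of which passed.

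The genes whose signal ran most like Cd74 over all 49 arrays were RT1-Da (r = 0.951) and RT1-Bb (r = 0.894). They were followed by the non-members Fcer1g, the common γ chain of Fc receptors (0.831), the complement component C3 (0.815), C1qa, a chain of complement C1q (0.799), the glycoprotein Gpnmb (0.781) and the annexin Anxa3 (0.780). Of the other members RT1-Ba ranked 17, RT1-DMb 51, Ifi30 53 and RT1-DMa 129 among the 9541 probe sets. All these arrays share the age difference, which enters r. With the age means removed, the closest non-members were Fcer1g (0.609), C1qc (0.548), C3 (0.544), Dhcr7, a reductase of cholesterol synthesis (0.534), and C1qb (0.534). Without replicate 9 these fell to 0.437, 0.172, 0.199, 0.463 and 0.0887, with the falls largest for the complement genes.

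Several proteases of the pathway were higher too, by smaller folds. RT1-Db1, the β chain of the D molecule, had a probe set that can match several transcripts and did not pass the filter; its mean was 50.3 ± 9.76 at 3 months, 51.2 ± 26.5 at 12 months and 99.7 ± 84.7 at 23 months, with replicate 9 at 366 and the other 12 old animals at 31.2 to 116.1. At 23 against 3 months 2.15% of the 9541 tested probe sets passed as higher and 0.975% as lower. Of 11 tested genes for class II proteolysis and turnover beside the members, 6 were higher at 23 than at 3 months and 0 lower, with a median of 0.21 against -0.00134 over all probe sets. They were the proteases that cut the invariant chain and antigen: Ctss, cathepsin S, at 1.46-fold (limma adjusted p = 4.97e-07), Ctsd at 1.27-fold (5.12e-06), Ctsb at 1.16-fold (0.00134), Lgmn, the asparaginyl endopeptidase, at 1.26-fold (0.00467), and Ctse and Ctsh. Marchf1, the ligase that removes class II from the surface, was at a log2 difference of -0.10 (adjusted p = 0.634). RT1-DOa and RT1-DOb had no probe set by symbol.

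No regulator of class II transcription passed. Ciita, the class II coactivator, had a mean of 58.5 ± 14.4 at 3 months and 60.5 ± 12.6 at 23 months and ran from 13.6 to 100.7 over all arrays, too dim to be tested. Replicate 9 was at 62.8 for Ciita. Of 10 tested genes of class II transcription, 0 passed (median -0.021), among them Rfx5 of the RFX complex at -0.028, Nfya of NF-Y at -0.18 (adjusted p = 0.485) and Sub1 at -0.059 (adjusted p = 0.427). Interferon γ, the main known inducer of Ciita, could not be tested: Ifng ran from 0.8 to 34.1. Of 10 tested genes of its signalling 2 were higher and 0 lower (median 0.15), where 2.15% of all tested probe sets were higher. They were the phosphatase Ptpn11 at 1.23-fold (limma adjusted p = 1.83e-05) and Stat3 at 1.32-fold (0.0260). Irf1, a direct target of the pathway, was at 1.14-fold (adjusted p = 0.566), and Irf8 at 1.29-fold (adjusted p = 0.106).

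Some genes of MHC class I presentation were also higher. Of 16 tested genes 3 were higher and 0 lower (median 0.097), where 2.15% of all tested probe sets were higher. They were the light chain B2m at 1.24-fold (limma adjusted p = 9.02e-07), the immunoproteasome subunit Psmb9 at 1.63-fold (2.59e-05) and the proteasome activator Psme1 at 1.23-fold (0.00143). Psmb9 and Psmb8, which was at 1.22-fold (adjusted p = 0.117), lie between the RT1-B and RT1-DM genes on chromosome 20. For the tested genes given here, in this order, the folds were 3.91, 5.12 and 3.53 for RT1-Da, RT1-Ba and RT1-Bb, 1.22 and 1.63 for Psmb8 and Psmb9, and 1.14 and 1.11 for RT1-DMb and RT1-DMa. Other genes of the stretch have no such fold: RT1-Db1 did not pass the filter and Tap1 never reached a signal of 100. Cd74, at 3.14-fold, lies on chromosome 18, and whether position bears on the folds was not tested. Of 4 tested genes of T cell contact 1 was higher, Cd83, a surface protein that stabilises class II, at 1.21-fold (limma adjusted p = 2.60e-04), while the co-stimulatory genes Cd80 and Cd40 never reached a signal of 100. A count from so few genes describes this list only.

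Microglia and macrophage markers were also higher at 23 months, and some already at 12 months. At 12 against 3 months 3 of 18 tested markers were higher, where 19 of 9541 probe sets passed (0.199%) and no member did. The 3 were Fcgr2b at 1.54-fold (limma adjusted p = 0.00306), Fcer1g at 1.35-fold (9.16e-04) and Cd53 at 1.40-fold (0.00889). Their log2 differences were 0.62 ± 0.12, 0.43 ± 0.075 and 0.49 ± 0.10 (SE). Members had wider standard errors for the chains and Cd74: RT1-Ba was at 0.91 ± 0.39, RT1-Da at 0.46 ± 0.23, RT1-Bb at 0.35 ± 0.30 and Cd74 at 0.17 ± 0.20. The remaining members were at 0.20 or less. Whether the markers rose before the members was not tested. Of 18 tested markers 13 were higher at 23 than at 3 months and 0 lower (median 0.43), where 2.15% of all tested probe sets were higher. They were led by the Fc receptor Fcgr2b at 2.46-fold (limma adjusted p = 4.01e-13), Fcer1g at 1.70-fold (7.49e-12), Cd53 at 1.81-fold (1.33e-09) and Laptm5 at 1.53-fold (6.02e-08). The summed signal of the listed markers was 7143 to 8013 at 3 months, 7272 to 8653 at 6, 7666 to 8851 at 9, 8044 to 9174 at 12 and 9239 to 14760 at 23 months. The sum at 23 months overlapped no younger age, and replicate 9 was the highest at 14760, with the other 12 at 9239 to 11170. P2ry12 and Tmem119, held to mark resident microglia, were higher at 1.46-fold and 1.24-fold (limma adjusted p = 1.83e-06 and 0.00806), and replicate 9 was at 564.4 and 325.2, inside the 440.9 to 668.7 and 259.9 to 353.8 of the other old animals. For C1qa it was at 2742.2 against 1149 to 1562, and for the phagocyte gene Cd68 at 217.6 against 51.6 to 89.5. The leading markers were mixed. Replicate 9 was at 328.6 for Fcgr2b (others at most 280.9), 1813.6 for Fcer1g (at most 1720) and 565.2 for Cd53 (at most 473.4). For Laptm5 it was at 503.2, inside the 350.8 to 529.1 of the others. These markers are a selection from the list, and whether kinds of marker differ in replicate 9 was not tested.

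When the mean log2 signal of these 18 markers was added to the fit as a covariate, no member passed at 23 against 3 months, where 18 probe sets did (0.189%). Cd74 was then at 0.53 ± 0.26 (adjusted p = 0.533), RT1-Da at 0.67 (0.485), RT1-Ba at 0.99 (0.646), RT1-Bb at 0.34 (0.888) and Ifi30 at 0.11 (0.869), all limma adjusted p-values, and the DM genes turned to -0.13 and -0.11. Replicate 9 was highest in both the markers and the chains, and the values of the chains and Cd74 were larger without it. With the covariate and without that animal, a combination added after the data had been seen, Cd74 passed at 1.11 ± 0.25 (limma adjusted p = 0.0454) and RT1-Da at 1.48 ± 0.27 (0.00356), where 11 probe sets did (0.115%). RT1-Ba at 1.41 (0.518), RT1-Bb at 0.99 (0.494) and Ifi30 at 0.16 (0.777) did not. At 23 against 12 months the covariate left 0 probe sets called with replicate 9 in the fit, and 3 without it, of which 2 were Cd74 at 1.09 (limma adjusted p = 0.00158) and RT1-Da at 1.13 (0.00194). The marker mean was itself 8.27 ± 0.054 at 3 months and 8.74 ± 0.18 at 23 months (SD, n = 9 and 13). Because the covariate runs with age, these fits cannot tell the part of microglia and macrophages from that of age.

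**Figure D4:**
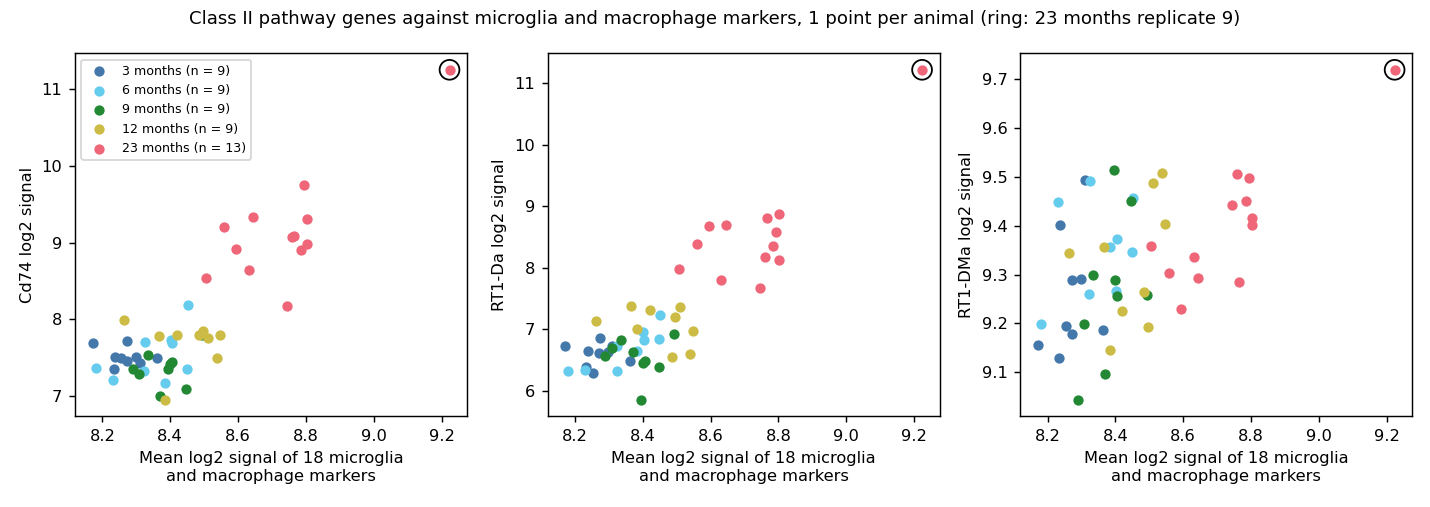
Log2 signal of Cd74, RT1-Da and RT1-DMa against the mean log2 signal of 18 microglia and macrophage markers, 1 point per animal and coloured by age; the ring marks replicate 9 of 23 months. The old animals lie to the upper right for Cd74 and RT1-Da, and the ringed animal is highest on both axes.

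Few markers of other cells could be tested. No gene passed among the tested border macrophage (1), dendritic cell (2), monocyte and neutrophil (1), T and natural killer cell (5), B and plasma cell (1), choroid plexus (8), blood cell (2) and other hippocampal field (8) markers. Folr2 of border macrophages was at 1.47-fold (limma adjusted p = 0.152), Naaa of dendritic cells at 1.40-fold (0.0769) and Cd4 at 1.43-fold (0.369). Of the T and natural killer cell markers 9 of 20 on the array never reached 100, among them Cd3d, Cd3g, Cd2 and Cd8a, nor did the B cell marker Cd79b. Their summed signal was 842.3 to 1205 at 3 months and 855.4 to 1842 at 23 months, with replicate 9 at 1129. The summed monocyte and neutrophil markers were 251.7 to 359.7 at 3 months and 277.8 to 446.7 in 12 old animals, with replicate 9 at 703.7, and 6 of 8 on the array never reached 100. The border macrophage sum was 242.9 to 346.7 at 3 months and 242 to 444.4 at 23 months, and the dendritic cell sum 300.7 to 420.6 and 385.5 to 556, with replicate 9 lowest of the old animals at 385.5. Vessel and meningeal markers had 1 of 16 higher, Abcb1a at 1.40-fold (limma adjusted p = 0.0295), and CA1 pyramidal cell markers 1 of 10 lower, Pou3f1 at a log2 difference of -0.32 (adjusted p = 0.0156). Over all tested probe sets 2.15% were higher and 0.975% lower, so single genes of such lists are a description. Replicate 9 was also extreme in the neuronal sums. For other hippocampal field markers it was at 9247, against 6974 to 8122 in the other 12 old animals and at most 8687 in the younger ones. For CA1 pyramidal cell markers it was at 21720, against 22140 to 26300 in the other 12 and at least 21830 in the younger ones. How these sums bear on its class II signals was not tested. The part of any of these cell types in the class II differences was not tested, and the microglia and macrophage covariate cannot be told apart from age.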

How the data were processed

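The authors deposited linear MAS5 intensities (per the submitters' processing notes) with all-probe-set scaling to 500 (per the design text); the trimmed mean of every array was 500.1. The MAS5 version is not given in the sources used here, and presence calls were not used. The table held 57 control probe sets; 12789 had 1 symbol in the platform annotation, 312 several and 2822 none listed. Of the former, 12754 matched RefSeq (GRCr8) by Entrez ID. The number of unused columns was 0, and the SD of the log2 difference was 0.252 or more in all 1176 pairs of arrays.

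Intensities under 16 were set to 16 (0.0539% of tested values) and log2 was taken. All 49 arrays were fitted with a mean per age in limma 3.58.1 (R 4.3.3; lmFit, eBayes with trend) over 9541 probe sets of 8094 genes with 1 symbol and a signal of 100 or more on at least 5 arrays. P-values were adjusted by Benjamini-Hochberg over all of them and called under 0.05. Each list gene was read from its brightest tested probe set. Named genes are the members, up to 4 called genes (or 2 not called) of smallest p per list, the 5 non-members most like Cd74 by each measure, and 9 pathway genes; others named were chosen after their values were seen. Members, lists and tests were chosen with earlier results of these data known. Each array is a separate animal, which is the spread that p-values refer to, and the number of arrays limits the precision. Scan dates are not used here.

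The replicate numbers are shared between ages. No label says that a number marks a shared litter or batch, and the numbers were not taken to pair animals. Alternatives covered the floor, filter, scaling, probe set choice, variance model, array weights, replicate block, plain tests, fits of 2 ages, the transthyretin arrays, the marker covariate and each array left out.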

Additional observations from a re-analysis of the deposited data

Results flagged for a closer look

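Within the groups of 9 animals, 6 of 36 groups (9 probe sets at 4 ages) had 1 animal whose gap to the nearest other exceeded Dixon's 95% critical value. The 13 animals of 23 months were not tested this way. For normally spread values chance gives about 1 in 20. The gaps were taken on signals before log2 and the groups share animals, so the count cannot be held against that rate. Replicate 3 of 6 months was such an animal in 3 of the 6 groups, at 291.9 for Cd74 (next 211.7), 556.3 for RT1-DMb (next 437.6) and 58.6 for the dim RT1-Bb probe set (next 28.9). The others were Ifi30 at 576.4 in replicate 1 of 12 months (next 467.1), the brighter RT1-Bb probe set at 72.6 in replicate 5 of 3 months (next 49.4) and the dim RT1-Ba probe set at 37.4 in replicate 4 of 12 months (next 14).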

How the results depend on the processing

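With the marker covariate set aside, Cd74, RT1-Da, RT1-Ba, RT1-Bb and Ifi30 passed at 23 against 3 months in every alternative that could test them and with any single array left out. Cd74 ranged from 1.63 to 1.69 over 16 alternatives and from 1.48 to 1.73 with 1 array left out; RT1-Ba ranged from 1.53 to 2.41 over 15 and RT1-Bb from 1.17 to 2.02 over 14. RT1-Bb had no value where the filter asked for 25 arrays or a mean of 100, and RT1-Ba none where it asked for 25 arrays. At 23 against 12 months RT1-Ba passed with a floor of 32 (1.34), a floor of 64 (1.18) and array weights (1.56), and its adjusted p lay between 0.0288 and 0.209 with 1 array left out. Depth in the sense of reads does not apply; RT1-Ba reached 100 on 23 arrays and RT1-Bb on 11, which limits their values at the younger ages.

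Counts of probe sets called moved as follows. Without the transthyretin arrays 189 were called at 23 against 3 months (main 298), 1 at 9 against 3 (main 5) and 2 at 6 against 3 (main 1). With array weights 37 were called at 12 against 3 (main 19) and 9 at 9 against 3. At 9 against 3 months 3 were called with no signal filter, with the brightest probe set per gene, with the plain test and with 2 ages alone. With 2 ages alone 0 were called at 6 against 3 and 14 at 23 against 12 (main 27). The covariate left 7 in the F-test (main 169), 18 at 23 against 3, 11 at 12 against 3, 2 at 9 against 3 and 0 at 23 against 12, and with replicate 9 also left out 11 at 23 against 3 and 3 at 23 against 12. Fits of 2 ages hold fewer samples; the other causes were not tested. Of the 21 coupled pairs 4 in place of 11 passed without the 2 farthest animals, and 4 without replicate 9.

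With 1 array left out the counts were 141 to 176 in the F-test, 248 to 321 at 23 against 3, 16 to 27 at 12 against 3, 2 to 7 at 9 against 3 (moved by replicates 6 and 7 of 3 months and 6 and 9 of 9 months), 1 at 6 against 3, 0 at 9 against 6 and 12 against 9, and 17 to 34 at 23 against 12 months (17 without replicate 3 of 23 months). With the replicate block 130 probe sets were called in the F-test, 301 at 23 against 3 and 28 at 23 against 12, and no call of a member changed. Deviations from the age mean correlated at a median of 0.052 for same-numbered animals of different ages (-0.13 to 0.36, 33 of 86 pairs over 0.1) and of -0.012 for other pairs (118 of 868 over 0.1); as a hint from the data and not the design, 11 of 44 animals correlated best with their own number.

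The differences that changed sign were all uncalled. With the covariate, at 12 against 3 months Cd74 was at -0.25, RT1-Da at -0.029, RT1-Bb at -0.21, RT1-DMa at -0.037 and RT1-DMb at -0.083. RT1-DMa was at -0.13 and RT1-DMb at -0.11 at 23 against 3, and RT1-DMa at -0.096, RT1-DMb at -0.031 and Ifi30 at -0.00039 at 23 against 12. With replicate 9 also left out RT1-DMa was at -0.11 and RT1-DMb at -0.044 at 23 against 3, and RT1-DMa at -0.086 at 23 against 12. With 1 array left out RT1-DMb ranged from -0.0050 (without replicate 1 of 3 months) to 0.078 at 12 against 3.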
